A study of Mus musculus with 12 samples.

Results

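The 10 brush border genes of the mouse ileum described here were the disaccharidases *Sis*, *Mgam*, *Treh* and *Lct*, the peptidases *Anpep* and *Dpp4*, the sugar transporters *Slc5a1*, *Slc2a2* and *Slc2a5*, and the peptide transporter *Slc15a1*. These 10 genes were found by their Ensembl identifiers among 54838 identifiers in the counts, and all 10 were among the 15938 genes with enough reads to be tested. RNA-seq was done on whole ileum of female adult C57BL/6J mice that carried no mutation or transgene. The mice drank normal water or water with 25 mM ZnSO4 for 7 days and were then injected i.p. with 200 µg dexamethasone (Dex), a synthetic glucocorticoid, in PBS, or with PBS only. Ileum was taken 2 h after the injection. The 4 groups, water + PBS, water + Dex, ZnSO4 + PBS and ZnSO4 + Dex, held 3 mice each. The study asked whether zinc changes the transcriptional response to the glucocorticoid receptor (GR).

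The brush border is the dense layer of microvilli on the lumen side of enterocytes. Its hydrolases are anchored in the membrane with their active sites in the lumen, where they cut the disaccharides and small peptides that pancreatic enzymes leave behind. The transporters beside them take up the products: SGLT1 (*Slc5a1*) carries glucose and galactose with sodium, GLUT5 (*Slc2a5*) carries fructose, and PepT1 (*Slc15a1*) carries dipeptides and tripeptides with protons. GLUT2 (*Slc2a2*) is the facilitative carrier by which glucose, galactose and fructose leave the cell towards the blood. Sucrase-isomaltase and most of the carriers are more abundant in jejunum than in ileum, and lactase is high before weaning and low in adults. Peptidases such as aminopeptidase N carry a zinc ion in the active site.

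With all 12 libraries in the fit, the sugar carriers were the members called. Dex was followed by about 2-fold higher *Slc5a1* in mice on either water. *Slc2a2* was higher in every Dex mouse than in every PBS mouse on the same water, and the difference passed the test in ZnSO4 mice. *Slc2a5* was lower with Dex in water mice. The abundant hydrolases *Sis*, *Mgam* and *Anpep* passed no test, and ZnSO4 alone called no member. Of all genes, 9.93% were called with Dex in water mice, 13.7% with Dex in ZnSO4 mice and 4.66% with ZnSO4 in PBS mice. ZnSO4 + Dex replicate 2 was the library that stood apart. Without it, *Slc2a2*, *Treh* and *Dpp4* were also called with Dex in water mice (11.4% of all genes). *Slc5a1* and *Slc15a1* were then called with ZnSO4 in PBS mice (6.19%). With only the compared groups fitted, *Slc2a2* (adjusted p = 0.0142), *Treh* (adjusted p = 0.0279) and *Dpp4* (adjusted p = 0.0233) were called with Dex in water mice. *Slc5a1* (adjusted p = 0.0318) was called with ZnSO4 in PBS mice in such a fit, which called 411 genes in all. For Dex in water mice, the share of all genes called in such a fit is not reported here.

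Between 10760132 and 11827487 reads per library were counted on genes. The members took 1.12% to 1.51% of all counts in 11 libraries and 0.709% in ZnSO4 + Dex replicate 2. That library stood apart: its counts differed from its 2 group mates by a chi-square per degree of freedom of 26.6 and 41.0, against 7.63 to 18.5 for all other pairs within a group. The summed normalised counts of 8 enterocyte markers were 98000 there and 144276 to 221242 in the others, and those of 6 smooth muscle markers were 30347 there and 14568 to 30818 in the others. Tests are therefore given with and without it. In bulk tissue, fewer cells of a type and less RNA per cell cannot be told apart. Markers of distal enterocytes (*Fabp6*, *Slc10a2* and 3 others) summed to 66923 to 122494 normalised counts and those of proximal enterocytes to 1244 to 6231. These are sums of different genes and are not on a common scale, so they cannot place the tissue along the intestine. Members shared from 0 to 3.22% of their 31-base stretches with other genes. *Dpp4* overlaps exons of *Gm13561* on the opposite strand over 3.67% of its exon bases, and the strand setting of the counting is not given in the sources used here.

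Levels between genes are compared as CPM per kb of exon (CPM scales each library to the same total), as means of 12 libraries. *Anpep* was by far the most abundant member, at 1767, rank 26 of all genes on this scale. *Slc5a1* followed at 344, then *Sis* at 184, *Dpp4* at 138 and *Mgam* at 135. Next came *Slc15a1* at 56.1 and *Treh* at 50.2. *Slc2a2* at 4.37 and *Slc2a5* at 3.70 were lower still, and *Lct* at 0.233 was close to silent. This order is that of the means over all libraries and did not hold in each group: in ZnSO4 + PBS, *Sis* (195) was above *Slc5a1* (184), and in both PBS groups *Slc2a5* (5.46 with water and 3.88 with ZnSO4) was above *Slc2a2* (1.17 and 0.744). The ranges over the libraries of *Slc5a1* and *Sis* overlapped, as did those of *Sis*, *Dpp4* and *Mgam*, those of *Slc15a1* and *Treh* and those of *Slc2a2* and *Slc2a5*. *Dpp4* also overlapped with *Slc5a1* and with *Treh*. *Slc2a2*, at 0.212 in ZnSO4 + PBS replicate 3, overlapped with *Lct*, at 0.874 in water + Dex replicate 2. *Anpep* did not overlap with any other member. By the means over all libraries, the facilitative carriers of glucose and fructose were thus rare beside *Sis*, *Mgam* and *Treh*, but not beside *Lct*.

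**Figure D1:**
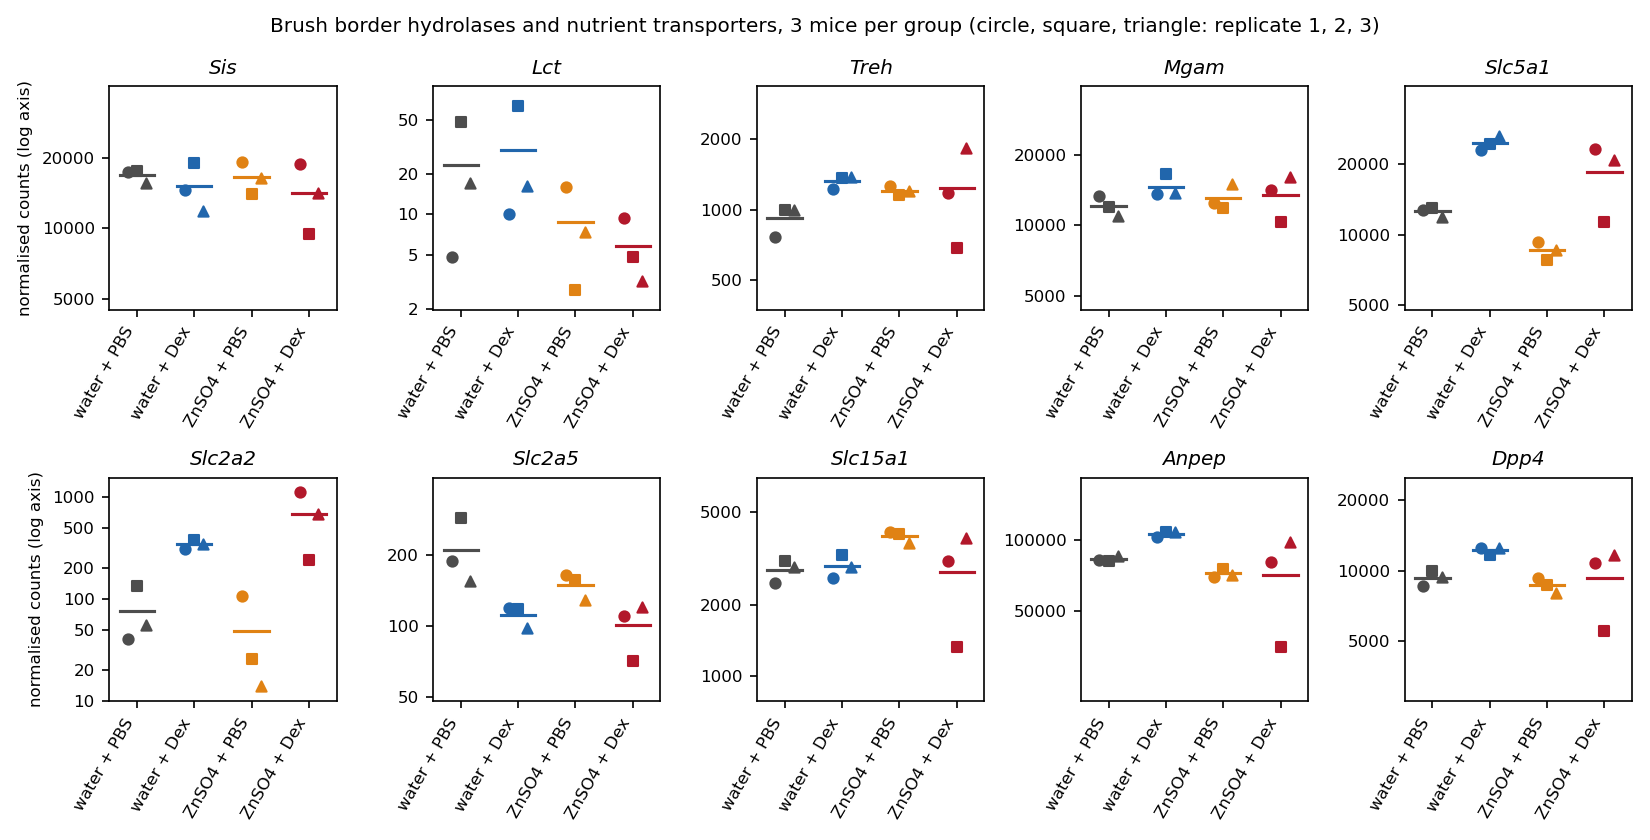
Normalised counts (log axis) of the 10 members in the 12 libraries, by group; circles, squares and triangles are replicates 1, 2 and 3, and lines are group means. *Slc5a1* and *Slc2a2* are higher in both Dex groups, and the square of ZnSO4 + Dex (replicate 2) is the lowest of its group for 9 of the 10 genes.

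Counts called are genes with a Benjamini-Hochberg adjusted p under 0.05 in edgeR's quasi-likelihood test, adjusted over all genes tested. With Dex in water mice, 2 of 10 members were called, *Slc5a1* higher and *Slc2a5* lower, against 9.93% of all genes (5.41% higher, 4.51% lower). In the same comparison 7 members did not overlap between the groups, 6 of them higher with Dex, against 29.7% of all genes. The median log2 fold change (LFC) of the members was 0.36 and that of all genes -0.01. With Dex in ZnSO4 mice, 2 members were called, *Slc5a1* and *Slc2a2*, both higher, against 13.7% of all genes in either direction and 6.65% higher, and 3 did not overlap, against 29.1%. ZnSO4 in PBS mice gave 0 called members, against 4.66% of all genes; 1 member had an unadjusted p under 0.05, against 19.8% of all genes, and DESeq2 called 0. There 4 members did not overlap between the groups, against 25.3% of all genes. ZnSO4 in Dex mice also gave 0 called members, against 4.37% of all genes, with 1 at an unadjusted p under 0.05 (19.1% of all genes) and 0 by DESeq2; 2 members did not overlap, against 25.9%. For ZnSO4 + Dex against water + PBS, *Slc2a2* was called higher and *Slc2a5* lower, 2 of 10 against 23.3% of all genes, and 2 did not overlap, against 36.9%. The interaction, which tests whether the effect of Dex differs between ZnSO4 and water mice, was called for 0 members and 0% of all genes; at an unadjusted p under 0.05 there were 0 members, beside 4.98% of all genes, and DESeq2 called 0 members and 6 genes in all. Counts of 0 to 2 called among 10 members are near these backgrounds, and the count furthest above its background was that of the 7 members that did not overlap with Dex in water mice. The comparisons that share a group also share its mice.

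Leaving out ZnSO4 + Dex replicate 2 narrowed the spread that all groups share in the fit. Called members then numbered 5 for Dex in water mice (11.4% of all genes), 3 for Dex in ZnSO4 mice (11.5%), 2 for ZnSO4 in PBS mice (6.19%), 0 for ZnSO4 in Dex mice (3.34%), 4 for ZnSO4 + Dex against water + PBS (20% of all genes) and 0 for the interaction (0%). The genes added are named below with each member. The median LFC of the members for Dex in ZnSO4 mice was 0.01 with this library and 0.26 without it.

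**Figure D2:**
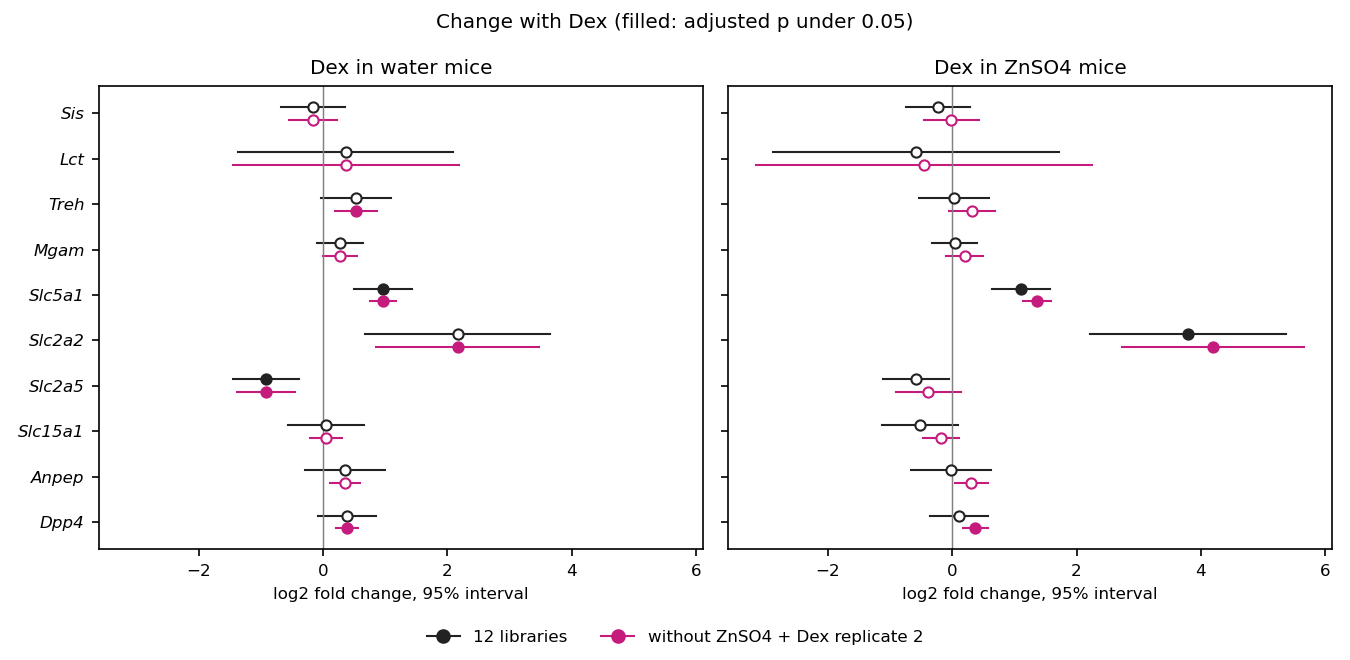
LFC with Dex and its 95% interval for the 10 members, in water mice (left) and ZnSO4 mice (right), with all 12 libraries (black) and without ZnSO4 + Dex replicate 2 (magenta); filled points have an adjusted p under 0.05. *Slc5a1* is filled in all 4 fits, at an LFC of 0.97 and 1.11 with all libraries.

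*Slc5a1* (ENSMUSG00000011034; chr5:33104219-33162870, plus strand, GRCm38) encodes SGLT1, which brings glucose and galactose into the enterocyte against their gradient. Water + PBS mice had 12744, 13052 and 11921 normalised counts, and water + Dex mice had 22929, 24425 and 26289. ZnSO4 + PBS mice had 9317, 7832 and 8603, and ZnSO4 + Dex mice had 23199, 11352 and 20878. Every water + Dex mouse stood above every water + PBS mouse, every ZnSO4 + PBS mouse stood below them, and in ZnSO4 + Dex replicate 2 alone lay below the water + PBS mice. By group means, ZnSO4 + PBS (8584 ± 743, SD, n = 3) was the lowest, followed by water + PBS (12572 ± 585), ZnSO4 + Dex (18476 ± 6278) and water + Dex (24548 ± 1683); the middle neighbours and the upper neighbours in this order overlapped. *Slc5a1* rose with Dex in water mice by an LFC of 0.97 (SE 0.21, 1.95-fold, adjusted p = 0.0128). In ZnSO4 mice it rose by 1.11 (SE 0.21, 2.15-fold, adjusted p = 0.00452). The interaction was 0.14 (95% interval -0.51 to 0.79, adjusted p = 0.985), so a difference between the Dex effects was not shown and was bounded only within that interval. ZnSO4 in PBS mice gave an LFC of -0.55 (SE 0.21, adjusted p = 0.171), with all 3 ZnSO4 mice below all 3 water mice. For ZnSO4 + Dex against water + PBS the LFC was 0.56 (SE 0.21, adjusted p = 0.0796), which was called by DESeq2 (LFC 0.56, adjusted p = 0.0275), as it was with structural scaling (LFC 0.70, adjusted p = 0.00167).

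Without ZnSO4 + Dex replicate 2, *Slc5a1* was called in 4 of the 5 comparisons between groups. Its LFC was 0.97 with Dex in water mice (adjusted p = 6.7e-05), 1.36 with Dex in ZnSO4 mice (adjusted p = 1.1e-05), -0.55 with ZnSO4 in PBS mice (adjusted p = 0.00776) and 0.81 for ZnSO4 + Dex against water + PBS (adjusted p = 0.000316). ZnSO4 in Dex mice gave -0.16 (adjusted p = 0.514). The interaction was 0.39 (95% interval 0.09 to 0.70, unadjusted p = 0.0162), but its adjusted p over all genes was 0.999994. The call with Dex in water mice was lost without water + PBS replicate 3 (adjusted p = 0.0528) and without water + Dex replicate 3 (adjusted p = 0.0604), with LFCs of 0.93 and 0.91.

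The summed markers of proximal enterocytes, a list of 7 genes with 5 tested, had the same order of groups as *Slc5a1*: 1244 to 1586 normalised counts in ZnSO4 + PBS, 2092 to 2837 in water + PBS, 2489 to 3599 in ZnSO4 + Dex and 4726 to 6231 in water + Dex. The 5 tested genes did not move together, so this sum does not describe each of them. Their LFCs with Dex in water mice ran from -1.73 to 4.09, with a median of 0.21. With ZnSO4 in PBS mice 0 were called higher and 2 lower (4.66% of all genes in either direction). Dex called 1 higher and 1 lower in water mice (9.93%) and in ZnSO4 mice (13.7%). ZnSO4 + Dex against water + PBS called 1 higher and 2 lower (23.3%). Their part in the results of the sugar carriers was not tested. Structural genes of the microvillus moved in part with this result. Summed over 12 such genes (villin, espin, plastin, ezrin and others), normalised counts were 111330 to 129173 in water + PBS and 140892 to 146445 in water + Dex, which did not overlap, although only *Baiap2l1* of the 12 was called with all libraries. Relative to the geometric mean of these 12 genes in the same library, *Slc5a1* stood at 1.68 to 1.97 in water + PBS, 2.92 to 3.20 in water + Dex, 1.29 to 1.33 in ZnSO4 + PBS and 2.72 to 3.40 in ZnSO4 + Dex. On this ratio ZnSO4 + Dex replicate 2, at 2.72, lay beside its group mates, and the Dex groups did not overlap with the PBS groups. When libraries were scaled to the structural genes, which shifted the median LFC of all genes to -0.27 for Dex in water mice and 0.51 for ZnSO4 in Dex mice, *Slc5a1* still rose with Dex in water mice (LFC 0.71, SE 0.13, adjusted p = 0.00323) and in ZnSO4 mice (LFC 1.19, SE 0.13, adjusted p = 1.84e-05), and ZnSO4 in PBS mice gave -0.49 (adjusted p = 0.0901).

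The sequence before the *Slc5a1* start is shown because this member rose with Dex on either water. It is the RefSeq promoter of GRCm38.p6 at chr5:33103969-33104218, plus strand, 250 bases that end 1 base before the start. Capitals mark matches to the motifs searched on either strand: the core of GR-binding elements, which reads AGAACA, the CDX motif TTTATG, the GATA motif AGATAA, and the motif of MTF1, the zinc-responsive factor, which reads TGCACNC or, in its other form, TGCGCNC.
Slc5a1: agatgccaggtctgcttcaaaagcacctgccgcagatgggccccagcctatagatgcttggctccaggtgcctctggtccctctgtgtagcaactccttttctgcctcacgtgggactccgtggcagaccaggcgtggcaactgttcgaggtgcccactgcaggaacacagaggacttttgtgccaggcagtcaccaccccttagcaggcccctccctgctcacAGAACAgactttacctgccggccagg
The only match, AGAACA, lies 26 to 21 bases before the start. Among 32817 mouse promoters of 300 bases (250 before and 50 after the start), 19% hold this motif on either strand, and 2 of the 10 members do, *Slc5a1* and *Dpp4*.

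*Slc2a2* (ENSMUSG00000027690; chr3:28697903-28731359, plus strand) encodes GLUT2, the exit carrier of the enterocyte. Normalised counts were 40.9, 133 and 56.1 in water + PBS and 305, 381 and 345 in water + Dex. ZnSO4 + PBS mice had 107, 25.6 and 13.9, and ZnSO4 + Dex mice 1106, 242 and 679. Each Dex mouse was above each PBS mouse, and the highest values were in ZnSO4 + Dex, where replicate 2 was again the lowest of its group. These are low counts, from 15 to 1067 reads per library. The rise with Dex in ZnSO4 mice was an LFC of 3.80 (SE 0.72, 13.9-fold, adjusted p = 0.00433), and without ZnSO4 + PBS replicate 1 it was 5.08. In water mice the LFC was 2.16 (SE 0.68, 4.48-fold, adjusted p = 0.0708), which missed the threshold with all 12 libraries; without water + PBS replicate 2 it was 2.82 and was not called either. That call depended on the settings, with an LFC of 2.16 or 2.17 in each: adjusted p was 0.0386 without ZnSO4 + Dex replicate 2, 0.0305 without ZnSO4 + PBS replicate 1, 0.0186 with no count filter and 0.0142 with only the groups compared in the fit. For ZnSO4 + Dex against water + PBS, *Slc2a2* rose by 3.14 (SE 0.69, adjusted p = 0.00722). Both calls were kept without ZnSO4 + Dex replicate 2, at LFCs of 4.20 (adjusted p = 0.00188) and 3.54 (adjusted p = 0.00303). ZnSO4 gave an LFC of -0.66 in PBS mice (adjusted p = 0.665) and 0.97 in Dex mice (adjusted p = 0.446), with overlapping groups in each. The interaction was 1.63 (95% interval -0.46 to 3.72, adjusted p = 0.952); without ZnSO4 + Dex replicate 2 it was 2.03 (95% interval 0.11 to 3.95, unadjusted p = 0.0399, adjusted p = 0.999994). Relative to the 12 structural genes, *Slc2a2* stood at 0.00212 to 0.0194 in the PBS libraries and at 0.0389 to 0.162 in the Dex libraries.

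The promoter of *Slc2a2* (chr3:28697653-28697902, plus strand, GRCm38.p6) is shown beside that of *Slc5a1*, since these members rose together with Dex in ZnSO4 mice.
Slc2a2: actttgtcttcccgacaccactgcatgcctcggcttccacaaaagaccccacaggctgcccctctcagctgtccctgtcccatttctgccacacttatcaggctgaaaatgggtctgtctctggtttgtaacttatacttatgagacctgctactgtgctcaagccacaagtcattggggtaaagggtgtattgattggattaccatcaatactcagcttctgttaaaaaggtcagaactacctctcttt
It holds no match to the motifs searched, which says only that these letters are not in this window.

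*Slc2a5* (ENSMUSG00000028976; chr4:150119283-150144169, plus strand) encodes GLUT5, the fructose carrier of the brush border. The water + PBS mice had 190, 288 and 156 normalised counts and the water + Dex mice 119, 118 and 98.3. ZnSO4 + PBS mice had 164, 157 and 129, and ZnSO4 + Dex mice 110, 71.1 and 121. All Dex mice were below all PBS mice. *Slc2a5* fell with Dex in water mice (LFC -0.92, SE 0.24, adjusted p = 0.0319) and was lower in ZnSO4 + Dex than in water + PBS (LFC -1.07, SE 0.24, adjusted p = 0.00796). With Dex in ZnSO4 mice the LFC was -0.58 (SE 0.24, adjusted p = 0.148), and with ZnSO4 in PBS mice -0.49 (SE 0.24, adjusted p = 0.274). The interaction was 0.34 (95% interval -0.40 to 1.08). The fall with Dex in water mice rests on few reads, 91 to 287 per library in these groups, and the call was lost without any of 5 of these 6 libraries: adjusted p was 0.055 without water + PBS replicate 1, 0.114 without water + PBS replicate 2, and 0.0744, 0.0801 and 0.126 without water + Dex replicates 1, 2 and 3. Without water + PBS replicate 2, the highest library, the LFC was -0.63, while the call was kept without water + PBS replicate 3 (LFC -1.09, adjusted p = 0.0185). Leaving out ZnSO4 + Dex replicate 2 kept both calls, at LFCs of -0.92 (adjusted p = 0.0162) and -0.87 (adjusted p = 0.0258). The 7 B cell markers summed to 306, 6605 and 1886 normalised counts in water + PBS replicates 1, 2 and 3, and to 2384, 321 and 156 in water + Dex, so the highest *Slc2a5* and the highest B cell sum were in the same library. With Dex in water mice these markers had LFCs from -2.10 to -1.23, and 0 of them were called, against 9.93% of all genes. Their part in the result was not tested.

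**Figure D3:**
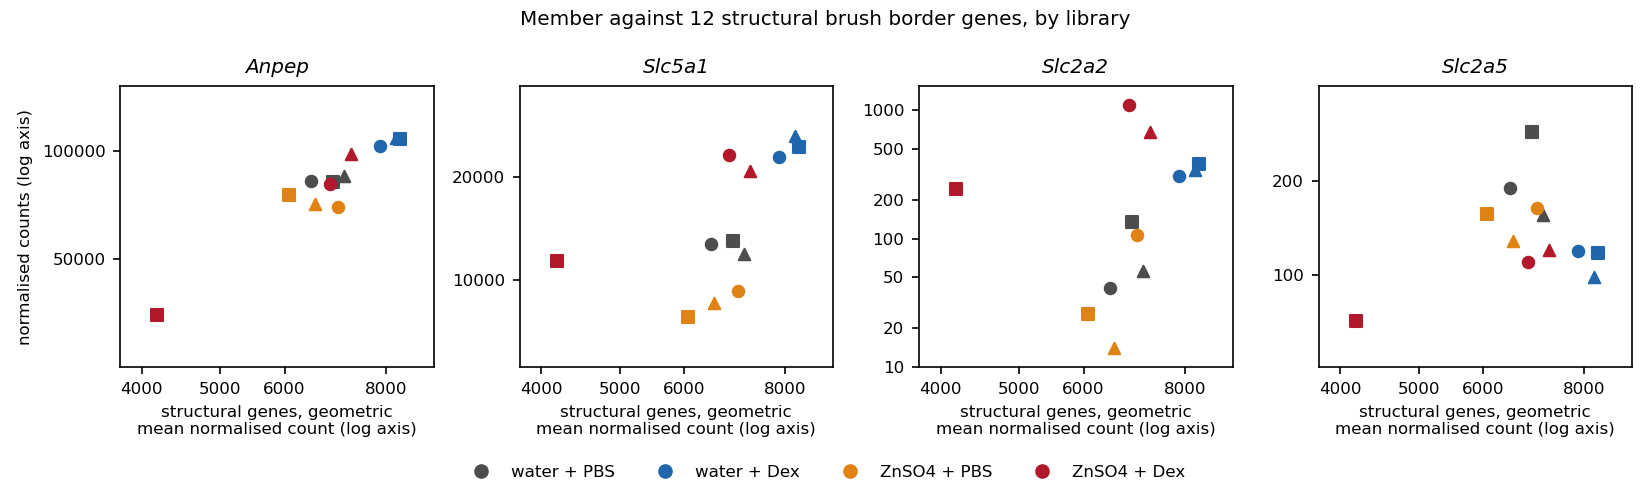
Normalised counts (log axis) of 4 members against the geometric mean of 12 structural brush border genes (log axis), by library and group, with replicates as circles, squares and triangles. ZnSO4 + Dex replicate 2 is the lowest of the 12 libraries on the x axis, at 4180, against 6071 to 8324 in the others; *Anpep* is also lowest there, while the ratio of *Slc5a1* to the structural mean is 2.72 to 3.40 in the Dex libraries and 1.29 to 1.97 in the PBS libraries.

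*Slc15a1* (ENSMUSG00000025557; chr14:121459621-121505252, minus strand) encodes PepT1. ZnSO4 + PBS mice had 4120, 4027 and 3685 normalised counts, above the 2484, 3099 and 2899 of water + PBS. Water + Dex mice had 2608, 3266 and 2910, and ZnSO4 + Dex mice had 3077, 1325 and 3888. ZnSO4 + PBS did not overlap with water + PBS or water + Dex, which lay together, and ZnSO4 + Dex ranged from below them to within ZnSO4 + PBS. ZnSO4 in PBS mice gave an LFC of 0.48 (SE 0.28, adjusted p = 0.381) with all libraries. Without ZnSO4 + Dex replicate 2 the LFC was the same and the SE 0.12, and *Slc15a1* was called (adjusted p = 0.0369). Dex gave 0.05 in water mice (95% interval -0.57 to 0.67) and -0.51 in ZnSO4 mice (95% interval -1.13 to 0.10). All 3 ZnSO4 + PBS mice lay above water + PBS for the peptide carrier and below it for *Slc5a1*. Neither gene was called there with all libraries. In this comparison 4 of the 10 members did not overlap between the groups, against 25.3% of all genes.

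**Figure D4:**
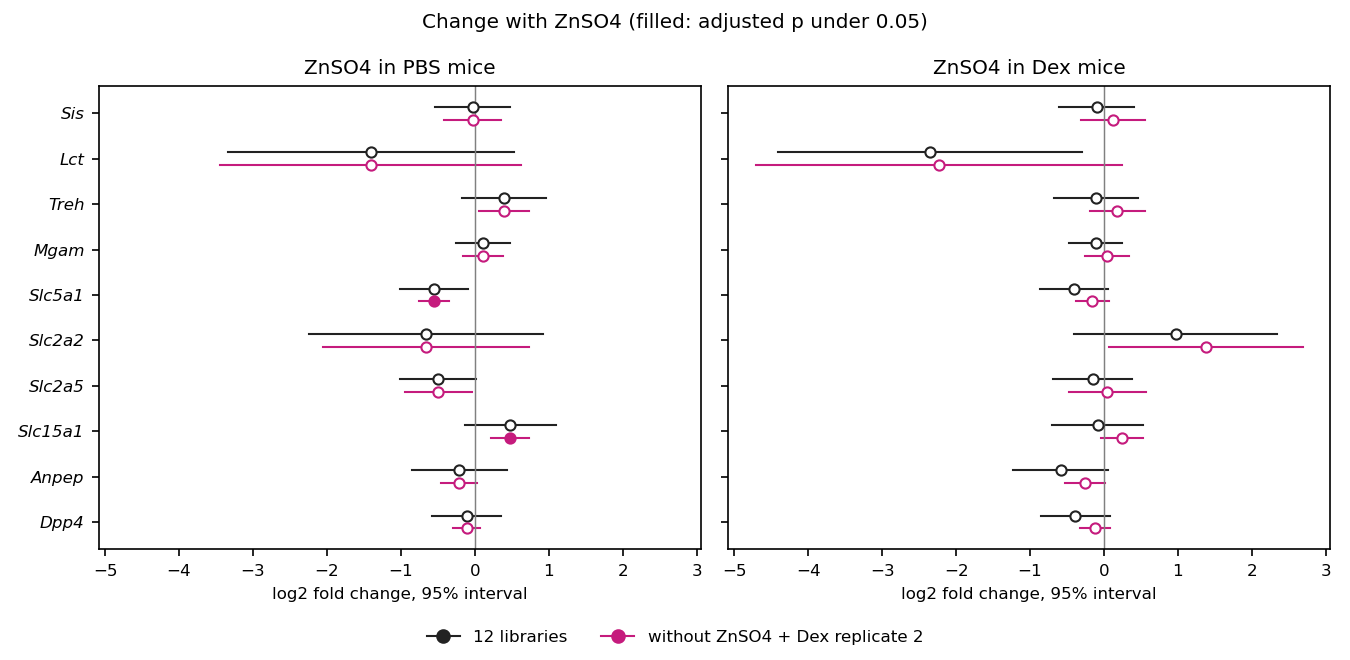
LFC with ZnSO4 and its 95% interval for the 10 members, in PBS mice (left) and Dex mice (right), with all 12 libraries (black) and without ZnSO4 + Dex replicate 2 (magenta); filled points have an adjusted p under 0.05. *Slc5a1* (LFC -0.55) and *Slc15a1* (LFC 0.48) are filled in PBS mice only without that library.

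Sucrase-isomaltase (*Sis*, ENSMUSG00000027790; chr3:72888557-72967863, minus strand) splits sucrose and the branch points of starch. Its group means were 16866 ± 1077 normalised counts in water + PBS, 15110 ± 3550 in water + Dex, 16531 ± 2542 in ZnSO4 + PBS and 14110 ± 4614 in ZnSO4 + Dex (SD, n = 3). The libraries ranged from 15624 to 17537 in water + PBS, 11854 to 18894 in water + Dex, 14039 to 19121 in ZnSO4 + PBS and 9496 to 18725 in ZnSO4 + Dex, and all groups overlapped. LFCs lay between -0.26 and -0.03 over the 5 comparisons between groups, with 95% intervals of -0.67 to 0.35 for Dex in water mice and -0.54 to 0.48 for ZnSO4 in PBS mice. For *Sis*, a 2-fold change was therefore outside the interval of each of these comparisons, as it was for *Mgam* and *Dpp4*.

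Maltase-glucoamylase (*Mgam*, ENSMUSG00000068587; chr6:40628831-40769123, plus strand) releases glucose from starch fragments. In water + PBS it had 13379, 11978 and 10974 normalised counts and in water + Dex 13664, 16515 and 13715. The ZnSO4 groups had 12470, 11861 and 14997 with PBS and 14099, 10375 and 16113 with Dex. The water groups did not overlap but were close, with an LFC of 0.27 (SE 0.17, adjusted p = 0.372). In ZnSO4 mice, Dex gave 0.05 (95% interval -0.32 to 0.41).

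Trehalase (*Treh*, ENSMUSG00000032098; chr9:44673233-44686305, plus strand) splits trehalose, the disaccharide of fungi and insects. Water + PBS mice had 763, 993 and 1001 normalised counts, below the 1228, 1368 and 1382 of water + Dex and the 1264, 1158 and 1196 of ZnSO4 + PBS. ZnSO4 + Dex mice, at 1176, 686 and 1836, had the widest spread. The LFC was 0.53 with Dex in water mice (SE 0.26, adjusted p = 0.254) and 0.39 with ZnSO4 in PBS mice (SE 0.26, adjusted p = 0.443); these comparisons share the water + PBS mice. Without ZnSO4 + Dex replicate 2, *Treh* was called with Dex in water mice (LFC 0.53, adjusted p = 0.0479) and for ZnSO4 + Dex against water + PBS (LFC 0.71, adjusted p = 0.0127). Scaled to the structural genes, all 12 libraries gave *Treh* an LFC of 0.28 with Dex in water mice (adjusted p = 0.360). For ZnSO4 + Dex against water + PBS it was 0.55 (adjusted p = 0.0469).

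Lactase (*Lct*, ENSMUSG00000026354; chr1:128284756-128328318, minus strand) was near the limit of detection. Raw reads were 5, 48 and 18 in water + PBS, 9, 59 and 15 in water + Dex, 17, 3 and 8 in ZnSO4 + PBS and 9, 5 and 3 in ZnSO4 + Dex. Replicate 2 of each water group was the highest, and the spread within these groups exceeded the difference between them. The LFC with ZnSO4 was -1.41 in PBS mice (SE 0.88, adjusted p = 0.416) and -2.35 in Dex mice (SE 0.94, 95% interval -4.41 to -0.30, adjusted p = 0.195), where all ZnSO4 mice were below all water mice.

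The promoters of *Sis* and *Lct* are shown because they are the textbook targets of CDX2 among the members, and *Cdx2* fell with Dex (below). They come from RefSeq, GRCm38.p6, at chr3:72967864-72968113 and chr1:128328319-128328568, each read 5′ to 3′ on the minus strand; capitals mark the same motifs as above.
Sis: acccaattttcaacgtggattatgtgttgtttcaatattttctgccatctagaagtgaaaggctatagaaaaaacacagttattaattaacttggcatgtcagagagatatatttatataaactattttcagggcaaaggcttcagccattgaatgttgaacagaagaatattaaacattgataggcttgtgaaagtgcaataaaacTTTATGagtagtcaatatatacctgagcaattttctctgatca
Lct: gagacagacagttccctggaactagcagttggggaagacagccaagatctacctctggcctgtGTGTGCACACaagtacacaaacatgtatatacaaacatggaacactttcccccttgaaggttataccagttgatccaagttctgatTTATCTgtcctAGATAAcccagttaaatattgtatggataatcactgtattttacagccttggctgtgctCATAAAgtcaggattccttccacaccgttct
In *Sis*, the CDX motif lies 43 to 38 bases before the start. *Lct* holds the CDX motif on the other strand 31 to 26 bases before the start, GATA matches 101 and 90 bases before it, and overlapping MTF1 matches from 187 bases before it. TTTATG occurs in 11.9% of all promoters and in 2 of 10 members, AGATAA in 11.2% and 3, and the MTF1 letters in 25.7% and 5. Matches describe the letters only.

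Aminopeptidase N (*Anpep*, ENSMUSG00000039062; chr7:79821803-79861059, minus strand), which removes the first residue of peptides, was among the most abundant mRNAs of the tissue, rank 6 by normalised count. Water + PBS mice had 82466, 81662 and 85178 normalised counts and water + Dex mice 103355, 107907 and 108122. ZnSO4 + PBS mice had 69565, 75187 and 71066, and ZnSO4 + Dex mice 80767, 34973 and 97600. The first 3 groups did not overlap with each other, with Dex above and ZnSO4 below water + PBS, and the last group spanned from below ZnSO4 + PBS to above water + PBS. The LFC was 0.36 with Dex in water mice (SE 0.29, adjusted p = 0.520) and -0.21 with ZnSO4 in PBS mice (SE 0.29, adjusted p = 0.740). Neither was called without ZnSO4 + Dex replicate 2, although the SE of the first fell to 0.11 (LFC 0.36, adjusted p = 0.0631). Relative to the structural genes, *Anpep* stood at 11.9 to 12.7 in water + PBS and 13.0 to 13.2 in water + Dex.

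Dipeptidyl peptidase 4 (*Dpp4*, ENSMUSG00000035000; chr2:62330073-62412231, minus strand) removes dipeptides after proline and inactivates incretin hormones. Water + PBS mice had 8640, 9968 and 9425 normalised counts and water + Dex mice 12481, 11605 and 12523. ZnSO4 + PBS mice had 9295, 8666 and 8050, and ZnSO4 + Dex mice 10831, 5524 and 11651. All water + Dex mice were above all water + PBS mice (LFC 0.39, SE 0.21, adjusted p = 0.326). Without ZnSO4 + Dex replicate 2, *Dpp4* was called with Dex in water mice (LFC 0.39, adjusted p = 0.0115) and in ZnSO4 mice (LFC 0.37, adjusted p = 0.0229). Scaled to the structural genes, all 12 libraries gave *Dpp4* an LFC of 0.13 with Dex in water mice (adjusted p = 0.533). In ZnSO4 mice it was 0.18 (adjusted p = 0.505). In the same fit, *Anpep* and *Mgam* had LFCs of 0.10 and 0.01 with Dex in water mice. The *Dpp4* promoter holds AGAACA 203 to 198 bases before the start.

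Members varied together across the 12 libraries to different degrees, given here as Pearson r of log2 CPM with no test, since libraries share depth, tissue and the library that stood apart. *Anpep* and *Dpp4* had an r of 0.945, and *Slc5a1* and *Slc2a2* one of 0.841. Within groups, *Anpep* and *Slc15a1* had 0.960. Among 9805 other genes with a mean of at least 10 CPM, the most like *Slc5a1* were *Specc1l* (0.985), *Itga6* (0.980) and *Dlg3* (0.976). *Slc2a2* was most like *Srsf4* (0.963), *Rbm7* (0.937) and *Srrm1* (0.935), and *Slc2a5* most like *Pxdc1* (0.941), *Pim1* (0.932) and *Usb1* (0.909). For *Slc15a1* these were *Cyp4f14* (0.981), *Tmem106a* (0.966) and *Ifngr2* (0.948), for *Anpep* *Cdhr5* (0.960), *Frk* (0.956) and *Eps8* (0.952), and for *Dpp4* *Heph* (0.984) and *Lmo7* (0.963). *Treh* was most like *Cyp4f13* (0.972), *App* (0.971) and *Slc6a19* (0.968). *Sis*, at 0.881 (*Ubap1*), 0.859 (*Prmt9*) and 0.850 (*Ripk1*), *Mgam*, at 0.924 (*Ino80c*), 0.913 (*Dync1h1*) and 0.904 (*Pon2*), and *Lct*, at 0.879 (*Mre11a*), 0.872 (*Plb1*) and 0.847 (*Asah2*), had no gene as near.

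Other sugar transporters were a list of 8 genes, 7 of them tested. ZnSO4 in PBS mice called 2 higher and 1 lower, against 4.66% of all genes, with a median LFC of -0.01 against -0.01 for all genes. *Slc5a4a* and *Slc5a4b*, relatives of SGLT1 of which the human form senses glucose, rose by LFCs of 1.43 (SE 0.20, adjusted p = 0.00304) and 1.43 (SE 0.28, adjusted p = 0.0156), while *Slc5a9*, a sodium-coupled carrier of mannose and fructose, fell by 0.75 (SE 0.18, adjusted p = 0.04). *Slc5a4a* had 46.7, 41.1 and 42.8 normalised counts in water + PBS and 124, 121 and 108 in ZnSO4 + PBS. In ZnSO4 + PBS mice the *Slc5a4* pair was thus above, and *Slc5a1* below, all water + PBS mice, although *Slc5a1* was not called there with all libraries. With Dex in water mice 1 was called (9.93% of all genes), *Slc2a1* (GLUT1), which rose by 0.56 (SE 0.10, adjusted p = 0.00342); it also rose in ZnSO4 mice, by 0.68 (SE 0.10, adjusted p = 0.000634), where *Slc5a4a* fell by 0.72 (adjusted p = 0.0313). ZnSO4 in Dex mice called 2 higher and 1 lower (4.37% of all genes), *Slc5a4a* (LFC 1.26), *Slc5a4b* (1.16) and *Slc5a9* (-0.89). When ZnSO4 + Dex replicate 2 was left out, *Slc5a4b* (LFC 1.12, adjusted p = 0.0974) and *Slc5a9* (LFC -0.73, adjusted p = 0.0538) were no longer called there, nor was *Slc5a4a* with Dex in ZnSO4 mice (LFC -0.53, adjusted p = 0.0908). ZnSO4 + Dex against water + PBS called 3 higher and 2 lower (23.3% of all genes), of which *Slc2a7*, a fructose and glucose carrier, had the largest change (LFC -2.35, SE 0.53, adjusted p = 0.00857). That change rests on few reads, 27, 42 and 29 in water + PBS and 4, 2 and 12 in ZnSO4 + Dex.

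Fructose handling was a list of 5 genes, in which *Txnip*, a glucose-induced arrestin that brings glucose carriers in from the membrane, stood out. *Txnip* had 3900 ± 300 normalised counts in water + PBS and 14092 ± 446 in water + Dex (LFC 1.85, SE 0.14, adjusted p = 1.06e-05) and it had 4638 ± 186 in ZnSO4 + PBS and 20762 ± 4263 in ZnSO4 + Dex (LFC 2.16, SE 0.14, adjusted p = 3.58e-06). *Txnip* lies within the antisense gene *Gm15441*, with which it shares 17.4% of its 31-base stretches. Ketohexokinase and triokinase were not called in any of the 5 comparisons, while *G6pc* was higher in ZnSO4 + Dex than in water + PBS (LFC 1.30, SE 0.42, adjusted p = 0.0467).

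Factors known to act on brush border genes were 9, and 5 of them were called with Dex in water mice, 2 higher and 3 lower, against 5.41% and 4.51% of all genes; their median LFC was -0.37 against -0.01 for all genes. *Hnf4g* had 2818 ± 416 normalised counts in water + PBS and 7383 ± 368 in water + Dex (LFC 1.39, SE 0.20, adjusted p = 0.000855) and *Gata6* 775 ± 27.5 and 1616 ± 94.2 (LFC 1.06, SE 0.20, adjusted p = 0.00599). *Cdx2* fell from 2522 ± 221 to 1426 ± 39.0 (LFC -0.82, SE 0.09, adjusted p = 0.000117) and *Hnf4a* from 10976 ± 1379 to 7172 ± 422 (LFC -0.61, SE 0.12, adjusted p = 0.00845). The same 5 factors were called in the same direction with Dex in ZnSO4 mice, against 13.7% of all genes. With ZnSO4 in PBS mice edgeR called 0 of the 9, against 4.66% of all genes, and DESeq2 called 0. At an unadjusted p under 0.05 there were 0, against 19.8%. With ZnSO4 in Dex mice edgeR called 0, against 4.37%, and DESeq2 called 0. At an unadjusted p under 0.05 there were 2, against 19.1%. The paralogues *Hnf4g* and *Hnf4a* thus changed in opposite directions.

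Other brush border peptidases were 12 genes, 10 of them tested. With Dex in water mice, 1 was called (9.93% of all genes), *Cpm*, a carboxypeptidase, which rose by 1.19 (SE 0.24, adjusted p = 0.00721), with a median LFC of 0.24 for the list. *Cpm* also rose with Dex in ZnSO4 mice (LFC 0.90, SE 0.23, adjusted p = 0.023). With ZnSO4 in PBS mice edgeR called 0 of 10, against 4.66% of all genes, and DESeq2 called 1. At an unadjusted p under 0.05 there were 3, against 19.8% of all genes. ZnSO4 in Dex mice called 2 lower (4.37% of all genes in either direction), the zinc metalloproteases *Mep1b* (LFC -1.03, SE 0.21, adjusted p = 0.02) and *Ace* (LFC -0.84, SE 0.19, adjusted p = 0.0272). Without ZnSO4 + Dex replicate 2, *Mep1b* and *Ace* were called lower with ZnSO4 in PBS mice too (LFCs of -0.54 and -0.54, adjusted p = 0.00606 and 0.0078), and in Dex mice they stayed called (LFCs of -0.77 and -0.61, adjusted p = 0.00297 and 0.0115). *Enpep*, aminopeptidase A, was then called higher with Dex in water mice (LFC 0.32, adjusted p = 0.0198) and in ZnSO4 mice (LFC 0.42, adjusted p = 0.00766). *Mep1b*, the beta subunit of meprin, had 21343, 19447 and 20563 normalised counts in water + PBS and 15082, 13974 and 13216 in ZnSO4 + PBS, so these groups did not overlap. *Anpep*, which uses zinc as well, was lower in all 3 ZnSO4 + PBS mice but was not called. Other peptidases of the list lay on the other side, and the list's median LFC with ZnSO4 in PBS mice was 0.17. *Mep1a* had 12011, 13995 and 15677 normalised counts in water + PBS and 21441, 17813 and 16336 in ZnSO4 + PBS. *Naaladl1* had 27937, 33396 and 39175 in water + PBS and 46377, 42637 and 39654 in ZnSO4 + PBS. Neither was called. Structural genes were called 1 of 12 with Dex in water mice, against 9.93% of all genes (*Baiap2l1*, LFC 0.94, SE 0.12, adjusted p = 0.000507). With Dex in ZnSO4 mice 2 of 12 were called, against 13.7% (*Baiap2l1* 1.05 and *Anks4b* -0.77). With ZnSO4 in PBS mice edgeR called 0 of 12, against 4.66% of all genes (0 by DESeq2). There 1 had an unadjusted p under 0.05, against 19.8%. With ZnSO4 in Dex mice edgeR called 0 of 12, against 4.37% (3 lower by DESeq2, which called 1022 genes in all). There 7 had an unadjusted p under 0.05, against 19.1% of all genes. The LFCs of the 12 ran from -0.67 to -0.08, with a median of -0.45, and of -0.23 without ZnSO4 + Dex replicate 2. *Ezr*, *Eps8* and *Myo7b* were called higher with Dex in water mice when that library was left out (LFCs of 0.43, 0.36 and 0.38).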

How the data were processed

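RNA-seq counts per gene were deposited for 12 libraries of mouse ileum. The authors trimmed single-end reads with Trimmomatic, aligned them with HISAT2 2.0.4 to mm10 (GRCm38), and made raw counts with featureCounts, leaving out reads that map to several places; the strand setting and annotation release are not given in the sources used here. The deposited counts were used unchanged. Groups were taken from the sample labels, 3 mice each, so p-values measure the spread between mice.

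Genes with too few reads were left out (filterByExpr, minimum count 10), libraries were scaled by TMM, and 1 model with 4 group means was fitted to all libraries with the quasi-likelihood test of edgeR 4.0.16 (R 4.3.3), with Benjamini-Hochberg adjustment over 15938 genes and a threshold of 0.05. For normalised counts, each count was divided by the effective size of its library and brought to the mean effective size, 11377700. Depth of 10760132 to 11827487 counts limits statements on genes with few reads. The steps were tested on simulated data. Alternatives were other scalings, count filters, a replicate block, only the groups compared, a LFC limit, DESeq2 1.42.0 and leaving out each library. Positions came from the GENCODE annotation of GRCm38 and promoters from RefSeq. All members are named, with up to 3 most like genes of each, and genes of other lists where called; a few list genes are not reported here. The members and lists were chosen with earlier results of these data known.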

Additional observations from a re-analysis of the deposited data

How the results depend on the processing

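Most values kept their direction and their side of the threshold: of the LFCs of single members recomputed under alternatives, 1103 kept both, 53 reversed, 17 passed the threshold newly and 8 no longer passed it. Scaling to the structural genes moved the median LFC of all genes to 0.0526 (ZnSO4 in PBS mice), -0.269 (Dex in water mice), 0.506 (ZnSO4 in Dex mice), 0.191 (Dex in ZnSO4 mice), 0.239 (ZnSO4 + Dex against water + PBS) and 0.448 (interaction), and changed the called genes to 188, 819, 2470, 954 and 1871 for the first 5. Fitting only the groups compared gave 411 genes for ZnSO4 in PBS mice and 1417 for Dex in ZnSO4 mice. An absolute LFC above 0.8 left 271, 705, 303, 926 and 1540. DESeq2 called 6 genes for the interaction. Called members became 1 (ZnSO4 in PBS mice) and 5 (Dex in water mice) with only the groups compared, and 4 for ZnSO4 + Dex against water + PBS with structural scaling. The share of all genes called with Dex in water mice with only these groups fitted is not reported here, so the 5 cannot be set against it.

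The replicate numbers did not pair the mice: same-numbered libraries had a median correlation of -0.0432 over 18 pairs, other pairs 0.0112 over 36, and 4 of 12 libraries were closest to their own number. With the number as a replicate block, 1 member was called with Dex in water mice, since *Slc2a5* had an adjusted p of 0.0552 (LFC -0.91), and *Treh* with Dex in ZnSO4 mice had an LFC of -0.0234.

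Structural scaling, which shifts all genes by the medians above, reversed the signs of these uncalled LFCs: *Sis* 0.0238 (ZnSO4 in PBS mice), *Slc15a1* -0.20 (Dex in water mice), *Sis* 0.32, *Treh* 0.27, *Mgam* 0.33, *Slc2a5* 0.27, *Slc15a1* 0.28 and *Dpp4* 0.0043 (ZnSO4 in Dex mice), *Anpep* 0.0207 (Dex in ZnSO4 mice), *Slc15a1* 0.0729 and *Dpp4* 0.14 (ZnSO4 + Dex against water + PBS), and *Sis* 0.30, *Mgam* 0.16 and *Dpp4* 0.0469 (interaction). *Dpp4*, at -0.00 for ZnSO4 + Dex against water + PBS, also became 0.0017 with RLE scaling, 0.0172 with upper-quartile scaling, 0.00078 with at least 10 counts in every library and 0.0017 with DESeq2.

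Leaving out each library in turn gave 283 to 1001 called genes for ZnSO4 in PBS mice, 936 to 1852 for Dex in water mice and 322 to 696 for ZnSO4 in Dex mice. Called members ranged from 0 to 2, from 0 (without water + Dex replicate 3) to 5, from 2 to 4 for ZnSO4 + Dex against water + PBS, and from 2 to 3 for Dex in ZnSO4 mice; each highest count was without ZnSO4 + Dex replicate 2. LFCs that changed sign ranged, for ZnSO4 in PBS mice, from -0.15 to 0.0767 (*Sis*) and -1.95 to 0.00072 (*Slc2a2*); for Dex in water mice, from -0.83 to 1.44 (*Lct*) and -0.0466 to 0.13 (*Slc15a1*); for ZnSO4 in Dex mice, from -0.36 to 0.12 (*Sis*), -0.51 to 0.18 (*Treh*), -0.26 to 0.0454 (*Mgam*), -0.31 to 0.0439 (*Slc2a5*) and -0.41 to 0.25 (*Slc15a1*); for Dex in ZnSO4 mice, from -1.09 to 0.18 (*Lct*), -0.38 to 0.32 (*Treh*), -0.10 to 0.20 (*Mgam*), -0.32 to 0.31 (*Anpep*) and -0.0858 to 0.37 (*Dpp4*); for ZnSO4 + Dex against water + PBS, from -0.36 to 0.30 (*Slc15a1*), -0.52 to 0.10 (*Anpep*) and -0.19 to 0.27 (*Dpp4*); and for the interaction, from -0.33 to 0.15 (*Sis*), -2.02 to 0.23 (*Lct*) and -0.0577 to 0.39 (*Slc5a1*). The cause of these changes was not tested.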

Other observations

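Amino acid transporters of the enterocyte were 14 genes, all tested. ZnSO4 in PBS mice called 2 higher (4.66% of all genes in either direction), with a median LFC of -0.11 for the list: *Slc6a20a*, the imino acid carrier, had 918 ± 79.3 normalised counts in water + PBS and 1991 ± 56.4 in ZnSO4 + PBS (LFC 1.12, SE 0.17, adjusted p = 0.00472), and *Slc6a20b* had 18.4 ± 8.92 and 47.4 ± 9.57 (LFC 1.35, SE 0.35, adjusted p = 0.0495). These neighbours share 32% and 31.5% of their 31-base stretches, and reads that map to both genes were left out of the counting by the authors. *Slc6a20a* fell with Dex in ZnSO4 mice (LFC -0.71, SE 0.17, adjusted p = 0.0161). *Slc7a8*, a carrier of neutral amino acids on the blood side, rose with Dex in ZnSO4 mice (LFC 0.73, SE 0.13, adjusted p = 0.00369) and with ZnSO4 in Dex mice (LFC 0.79, SE 0.14, adjusted p = 0.00812). ZnSO4 + Dex against water + PBS, with 23.3% of all genes called, called *Slc7a8* (LFC 1.16) and *Slc16a10* (LFC 0.41) higher and *Slc43a2* (LFC -0.76) lower. *Slc6a20a* was called higher with ZnSO4 in Dex mice too when ZnSO4 + Dex replicate 2 was left out (LFC 0.84, adjusted p = 0.00333).

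Alkaline phosphatases and lipid hydrolases were 6 genes. With ZnSO4 in PBS mice edgeR called 0, against 4.66% of all genes (0 by DESeq2), while 5 had an unadjusted p under 0.05, against 19.8%. The LFCs of the 6 genes there ran from -2.39 to 1.93. The alkaline phosphatase *Alpi* had 2564, 4365 and 4161 normalised counts in water + PBS and 7322, 6124 and 5718 in ZnSO4 + PBS. Against 4.37% of all genes, ZnSO4 in Dex mice called 1 higher, the alkaline phosphatase *Alppl2* (5.84 ± 3.19 normalised counts in water + Dex and 22.4 ± 1.90 in ZnSO4 + Dex, LFC 1.92, SE 0.41, adjusted p = 0.0215), and 1 lower, the ceramidase *Asah2* (1832 ± 716 and 524 ± 195, LFC -1.81, SE 0.40, adjusted p = 0.027). Neither was called without ZnSO4 + Dex replicate 2 (LFCs of 1.86 and -1.64, adjusted p = 0.059 and 0.0917). Alkaline phosphatases are enzymes that bind zinc. *Asah2* and the phospholipase *Plb1* were 2 of the 3 genes whose pattern over the 12 libraries was most like that of *Lct*, with r of 0.847 and 0.872. *Plb1* had 150, 668 and 228 normalised counts in water + PBS, 125, 837 and 250 in water + Dex, 183, 6.41 and 11.1 in ZnSO4 + PBS and 36.3, 8.65 and 12.8 in ZnSO4 + Dex. As for *Lct*, replicate 2 was the highest in each water group and replicate 1 the highest in each ZnSO4 group. *Gata4*, a factor of proximal intestine, had 14.6, 62.2 and 18.1 in water + PBS and 3.11, 1.92 and 2.14 in ZnSO4 + Dex, where it was called lower (LFC -3.66, SE 0.84, adjusted p = 0.00894). Where along the ileum each piece was taken is not given in the labels, and its part in these values was not tested.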
